A study of Bos taurus with 18 samples.

Results

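Transcripts of 8 genes of cholesterol synthesis were followed in bovine blastocysts produced in vitro and frozen on day 7. The group was a list of gene symbols, drawn up with earlier results of these data known. It named 9 genes: SREBF2, HMGCS1, MVD, IDI1, FDPS, FDFT1, LSS, CYP51A1 and DHCR7. IDI1 was dropped, since no probe set carried it as its single listed gene. A probe set is the array's group of short probes for 1 transcript. The other 8 genes had 14 probe sets, of 24016 tested probe sets and 9155 named genes in all. Each array held RNA from a pool of 60 whole embryos of mixed breed, made with sex-sorted semen of a single bull. Male embryos of bulls 1, 2 and 3 and female embryos of the same bulls formed 6 groups of 3 arrays, so that 9 male arrays stood against 9 female arrays. No group was treated. Whole-embryo pools cannot separate cell types, and each bull is 1 sire. Whether pools of 1 group were made in separate runs is not stated in the labels, and p-values cover no more than the variation among these pools, which may be technical.

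Cells make cholesterol from acetyl-CoA through mevalonate, isoprenoid units, squalene and lanosterol. SREBF2 encodes SREBP-2, a transcription factor held in the endoplasmic reticulum with SCAP and INSIG proteins. When membrane sterol is low it moves to the Golgi, is cut by the proteases MBTPS1 and MBTPS2, and its released part activates the genes of the pathway and of lipoprotein uptake. The pathway supplies membranes of dividing cells, and its intermediates feed the synthesis of ubiquinone, dolichol and prenyl groups.

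SREBF2 and 5 enzymes were higher in male than in female blastocysts, and no member was higher in females. Taking the brightest probe set of each gene, the largest differences were those of SREBF2 (1.53-fold) and CYP51A1 (1.40-fold). HMGCS1, FDFT1, LSS and DHCR7 were higher by 1.18 to 1.26-fold. FDPS and MVD did not pass the test, at 1.17 and 1.14-fold. By limma, with Benjamini-Hochberg adjustment over all probe sets, 6 of the 14 probe sets passed at a threshold of 0.05, all higher in males. Over the whole array 7.47% of probe sets were higher in males and 8.12% higher in females. With the brightest probe set of each gene the count was 6 of 8, where 9.31% of all 9155 genes were higher in males and 11.5% higher in females. The male mean was above the female mean at all 14 probe sets, and at 58.3% of all probe sets. The median difference of the 14 was 0.25 log2, against 0.03 log2 over all probe sets. In pooled embryos, fewer cells of a type and less RNA per cell cannot be told apart.

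**Figure D1:**
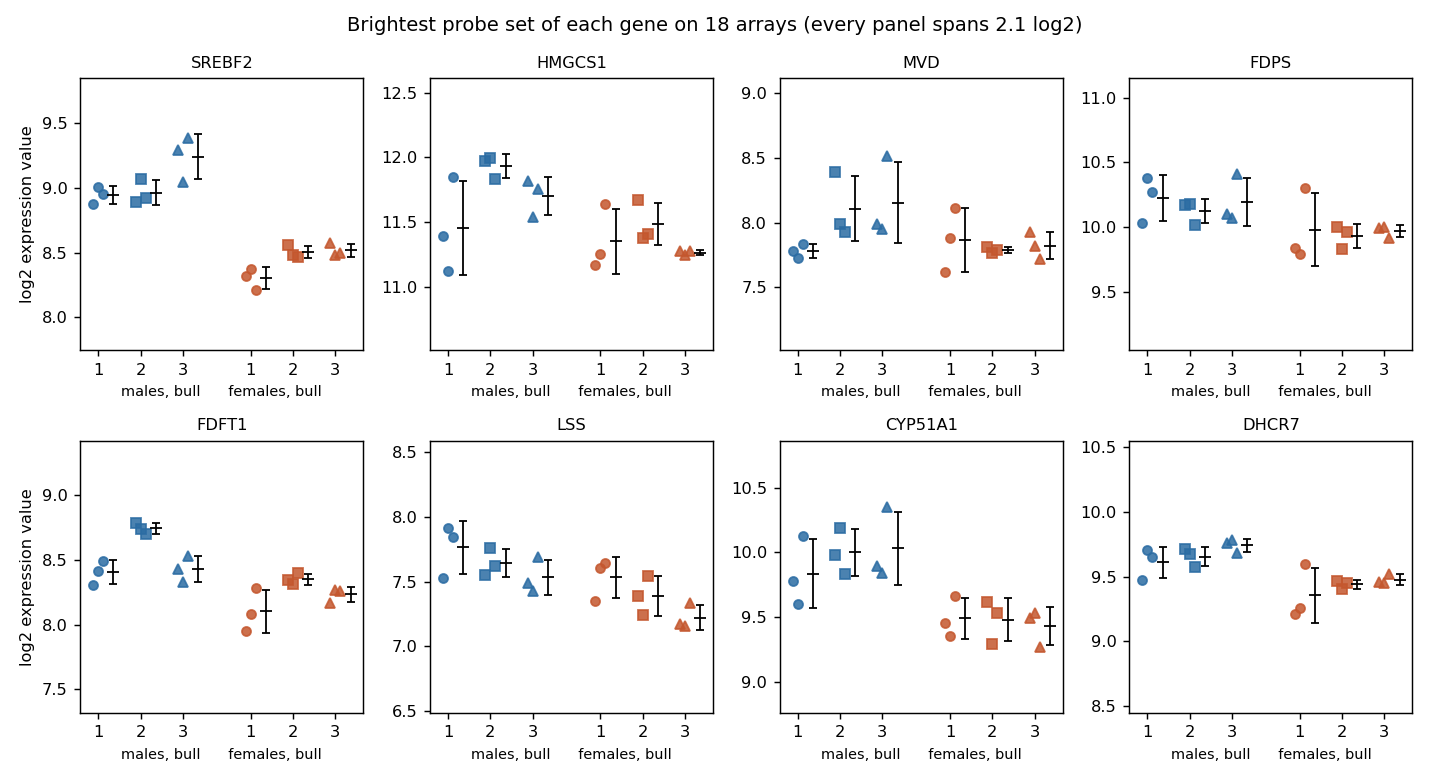
Log2 expression values of the brightest probe set of each of 8 genes on 18 arrays, males left and females right, by bull. Points are arrays, and black bars are the group mean ± SD (n = 3). The male arrays of SREBF2 sit between 8.87 and 9.38, all above the female arrays at 8.21 to 8.57.

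SREBF2, the regulator, showed the largest difference among the members. The brighter SREBF2 probe set had log2 values of 8.87, 9.01 and 8.95 in males of bull 1, 8.89, 9.07 and 8.93 in males of bull 2, and 9.29, 9.05 and 9.38 in males of bull 3. In females it had 8.32, 8.38 and 8.21 in bull 1, 8.56, 8.48 and 8.47 in bull 2, and 8.57, 8.48 and 8.50 in bull 3. The sexes did not overlap: the lowest male array stood above the highest female array in every bull and across bulls. Such a separation with males above was found at 0.937% of all probe sets, and at 1 of these 14. The means were 9.05 ± 0.18 in males and 8.44 ± 0.12 in females (SD, n = 9 arrays each). The difference was 0.61 log2 (95% confidence interval 0.49 to 0.73, limma adjusted p = 4.04e-07). The dimmer SREBF2 probe set stood at 3.89 ± 0.24 in males and 3.69 ± 0.15 in females, and its difference of 0.19 log2 (0.01 to 0.38) did not pass (limma adjusted p = 0.155).

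HMGCS1, the synthase that makes HMG-CoA, is the earliest enzyme among the members. Its brightest probe set ranged in males from 11.12 to 11.995 with a median of 11.81, and in females from 11.17 to 11.67 with a median of 11.27. The ranges overlapped, and the lowest value of all belonged to a male array of bull 1. The difference was 0.33 log2 (0.14 to 0.52, limma adjusted p = 0.0145). It did not pass when bull 2 or bull 3 was left out (adjusted p = 0.207 and 0.189). The dimmer HMGCS1 probe set, at 4.90 ± 0.23 in males and 4.65 ± 0.30 in females, differed by 0.25 log2 and did not pass (limma adjusted p = 0.168). It passed without female bull 2 replicate 1, its highest array at 5.30 (adjusted p = 0.029), and with bull as the replicate (adjusted p = 0.0372).

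MVD, which decarboxylates mevalonate diphosphate to isopentenyl diphosphate, did not pass. Its log2 values ran from 7.73 to 8.51 in males with a median of 7.95, and from 7.62 to 8.11 in females with a median of 7.81. Male arrays of bull 2 and bull 3 held the highest values, 8.395 and 8.51, while males of bull 1 lay within the female range. The difference was 0.19 log2 (0.01 to 0.37, limma adjusted p = 0.173).

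FDPS builds farnesyl diphosphate, the branch point from which sterols, ubiquinone, dolichol and farnesyl groups are drawn. It ranged from 10.02 to 10.41 in males with a median of 10.17, and from 9.79 to 10.30 in females with a median of 9.96. Of the 9 female arrays 8 lay below every male array, and female bull 1 replicate 3 lay among the males at 10.30. The difference of 0.22 log2 (0.06 to 0.38) had a limma adjusted p of 0.0555. Without that array it was 0.28 log2 and passed (adjusted p = 0.00702). It also passed without male bull 1 replicate 1 (adjusted p = 0.03) and without male bull 3 replicate 2 (adjusted p = 0.0461), and in 9 of 15 other fits.

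FDFT1, squalene synthase, commits farnesyl diphosphate to sterols. Its brightest probe set had a lowest, median and highest value of 8.31, 8.50 and 8.79 in males, against 7.95, 8.27 and 8.40 in females. Here 6 of 9 female arrays lay below every male array. The difference was 0.30 log2 (0.18 to 0.41, limma adjusted p = 0.00085), and it lost the call without bull 2 (adjusted p = 0.0667). A second FDFT1 probe set gave a similar difference with a much wider spread, at 7.65 ± 0.54 in males and 7.34 ± 0.38 in females (0.31 log2, limma adjusted p = 0.148). That probe set passed without male bull 1 replicate 1 (adjusted p = 0.019), without male bull 3 replicate 3 (0.0366), with the 5′ to 3′ index described below as a covariate (0.0128) and with bull as the replicate (0.00998). The third was dim, at 2.74 ± 0.12 in males and 2.59 ± 0.16 in females, and did not pass (0.15 log2, limma adjusted p = 0.147).

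LSS, lanosterol synthase, closes the sterol rings. Its 3 probe sets differed among themselves. The brightest had a lowest, median and highest value of 7.43, 7.62 and 7.92 in males, against 7.15, 7.35 and 7.64 in females. This was a difference of 0.27 log2 (0.12 to 0.41, limma adjusted p = 0.0124), and 6 of 9 female arrays lay below every male array. The other LSS probe sets gave 0.03 log2 (-0.11 to 0.18, limma adjusted p = 0.811) and 0.06 log2 (-0.11 to 0.23, limma adjusted p = 0.692), so that the call rests on 1 probe set of 3. Averaged over the 3, the difference was 0.12 log2 and did not pass (adjusted p = 0.131). The brightest lost its call without bull 2 (adjusted p = 0.085) and without bull 3 (adjusted p = 0.117).

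CYP51A1, the cytochrome P450 that removes a methyl group from lanosterol, showed the largest difference among the enzymes. Its log2 values were 9.78, 9.60 and 10.12 in males of bull 1, 9.98, 10.19 and 9.83 in males of bull 2, and 9.89, 9.84 and 10.35 in males of bull 3. In females they were 9.46, 9.35 and 9.66 in bull 1, 9.62, 9.29 and 9.53 in bull 2, and 9.49, 9.53 and 9.27 in bull 3. The ranges met only where male bull 1 replicate 2, at 9.60, fell below 2 female arrays. The means were 9.95 ± 0.23 in males and 9.47 ± 0.14 in females (SD, n = 9 each), a difference of 0.49 log2 (0.30 to 0.67, limma adjusted p = 0.000776). This call, like that of SREBF2, passed in all 33 alternative fits.

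DHCR7, a reductase of the final steps to cholesterol, had the smallest SD among male arrays of the 14 probe sets (0.10). It ranged from 9.47 to 9.78 in males with a median of 9.69, and from 9.22 to 9.60 in females with a median of 9.45. Of the female arrays 7 of 9 lay below every male array. The difference was 0.24 log2 (0.12 to 0.37, limma adjusted p = 0.00669). It did not pass when bull 2 or bull 3 was left out (adjusted p = 0.0703 and 0.0888).

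**Figure D2:**
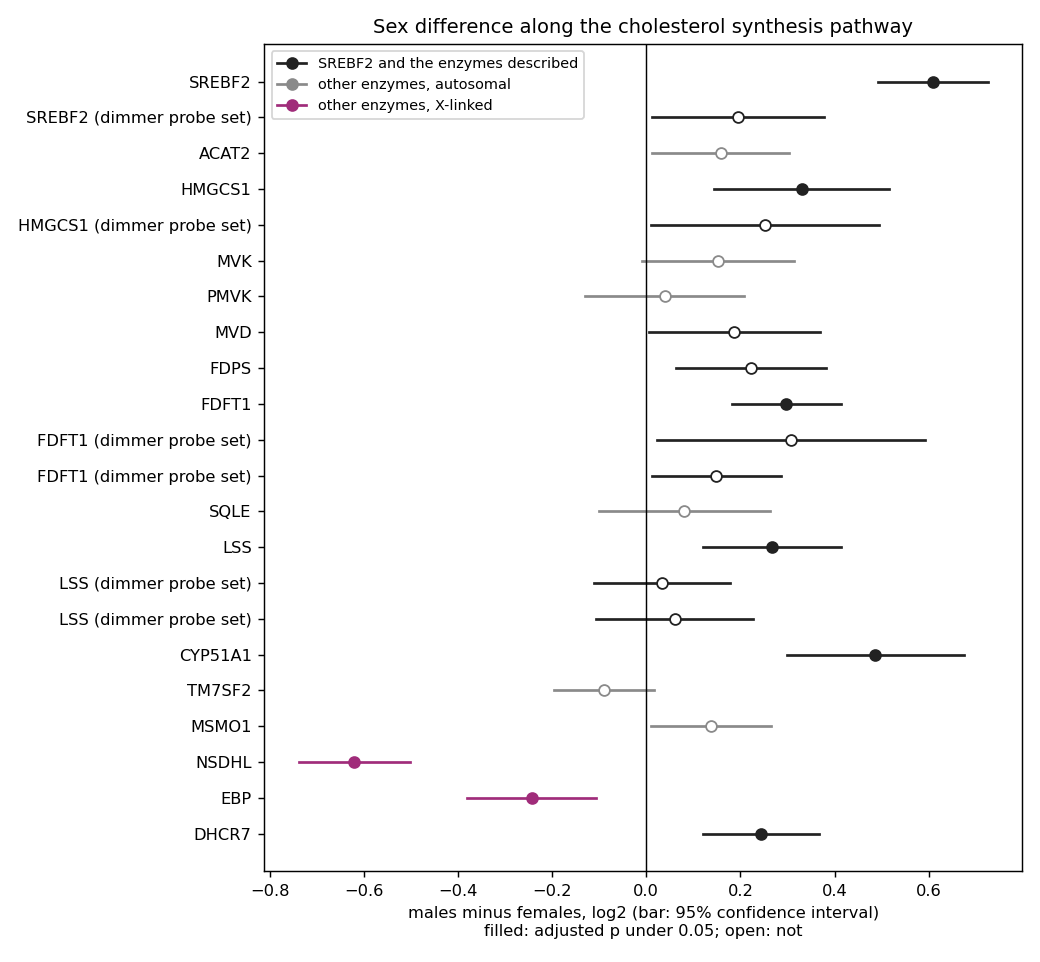
Difference of males minus females on the log2 scale with its 95% confidence interval, for SREBF2 and the enzymes in pathway order (filled points: adjusted p under 0.05). SREBF2 lies at 0.61 and CYP51A1 at 0.49, while the X-linked NSDHL and EBP lie at -0.62 and -0.24.

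The next question was whether the difference was alike in the 3 bulls. At 11 of the 14 probe sets the male mean was above the female mean in every bull, as it was at 28% of all probe sets. The exceptions were MVD in bull 1 (-0.09 log2) and, in bull 3, the dimmest probe set of FDFT1 (-0.05 log2) and 1 of LSS (-0.02 log2). SREBF2 differed by 0.64, 0.46 and 0.72 log2 in bulls 1, 2 and 3 and passed in each (limma adjusted p = 0.000639, 0.00984 and 0.000242). CYP51A1 differed by 0.34, 0.52 and 0.60 log2 and passed in bull 3 alone (limma adjusted p = 0.269, 0.0848 and 0.0329). FDFT1 differed by 0.30, 0.39 and 0.20 log2 and passed in bull 2 alone (limma adjusted p = 0.0873, 0.0273 and 0.325). HMGCS1 had 0.10, 0.45 and 0.44 log2, and MVD -0.09, 0.32 and 0.33 log2, with none called. FDPS, LSS and DHCR7 had differences between 0.19 and 0.31 log2 in each bull, none of them called. In all, 1, 2 and 2 of the 14 probe sets were called within bulls 1, 2 and 3, where 1.46%, 0.558% and 1.53% of all probe sets were higher in males. Leaving out male replicate 2 or female replicate 3 took the count of bull 2 to 0, and leaving out any other array of bull 2 took it to 1. The count of bull 3 was 1 without male replicate 3 or any female array of bull 3, and that of bull 1 was 3 without its female replicate 3. In the interaction of sex and bull no member was called, and the test called 0 of 24016 probe sets (0%). None of the 14 had an unadjusted interaction p under 0.05, against 2.73% of all probe sets. The smallest was 0.106, at the dimmest FDFT1 probe set.

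**Figure D3:**
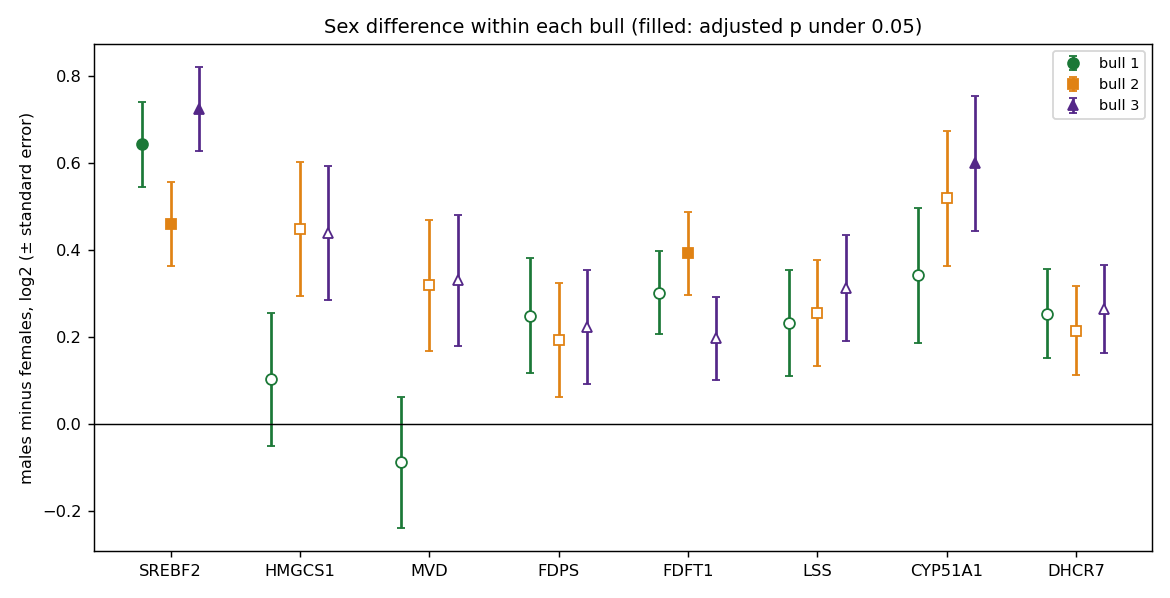
Difference of males minus females on the log2 scale within each of 3 bulls, for the brightest probe set of 8 genes, with its standard error (filled points: adjusted p under 0.05). SREBF2 is filled in all 3 bulls, at 0.64, 0.46 and 0.72, and MVD in bull 1 lies at -0.09.

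Over the 6 groups, male groups held the upper places for most genes. For SREBF2, FDPS, FDFT1, LSS, CYP51A1 and DHCR7 the 3 male groups held the top 3 means. For LSS and FDFT1, however, the lowest male and highest female means were only 0.00063 and 0.05 log2 apart. Both gaps were under 1 standard error of a difference between groups. SREBF2 had group means of 9.24 in males of bull 3, 8.96 in males of bull 2 and 8.94 in males of bull 1, then 8.52, 8.50 and 8.30 in females of bulls 3, 2 and 1. Of its 5 steps between neighbours 3 exceeded 2 standard errors of a difference between groups. The steps between males of bulls 2 and 1 (0.02 log2) and between females of bulls 3 and 2 (0.01 log2) were smaller than 1 standard error (0.10 log2). CYP51A1 had 1 step of over 2 standard errors, between its lowest male group at 9.83 and its highest female group at 9.49. FDFT1 also had 1, between males of bull 2 at 8.74 and males of bull 3 at 8.43. For HMGCS1, MVD, FDPS, LSS and DHCR7 no step did.

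Between bulls, few members differed. For bull 2 against bull 1, 1 of the 14 probe sets was called (1.52% of all). For bull 3 against bull 1 it was 2 (3.53% of all), and for bull 3 against bull 2 it was 1 (3.74% of all). Arrays of a bull may share a batch that the labels do not give, and bull and batch cannot be told apart. The largest difference was at the second probe set of FDFT1, which stood at 7.05 ± 0.37 in bull 3 and 7.87 ± 0.21 in bull 2 (SD, n = 6 arrays each, -0.82 log2, limma adjusted p = 0.0105). Its arrays ran from 6.67 to 7.67 in bull 3 and from 7.67 to 8.25 in bull 2, almost without overlap. The brightest FDFT1 probe set had 8.33 ± 0.13 in bull 3 and 8.55 ± 0.22 in bull 2, which did not pass (-0.22 log2, limma adjusted p = 0.0832). The 5′ minus 3′ signal of 3 control transcripts, an index of RNA integrity, was also lower in bull 3 than in bull 2. Its group means were -0.80 (males) and -0.59 (females) in bull 3, and -0.26 and -0.25 in bull 2. With that index as a covariate the second FDFT1 probe set differed by -0.37 log2 and was not called (adjusted p = 0.217). The index of single arrays ran from -1.27 to -0.36 in bull 3 and from -0.38 to -0.13 in bull 2. Index and bull are thus poorly separated in this fit, and the lost call does not show that the difference is absent. The part of RNA integrity in it was not tested.

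The brightest FDFT1 probe set was higher in bull 2 than in bull 1, at 8.55 ± 0.22 against 8.25 ± 0.20 (0.29 log2, limma adjusted p = 0.0355). It lost the call in 9 of 18 fits without 1 array (adjusted p = 0.0586 to 0.0836), namely those without any array of bull 2, male bull 1 replicate 1, or female bull 1 replicate 1 or 2. A dimmer LSS probe set was lower in bull 3 than in bull 1, at 5.31 ± 0.08 against 5.74 ± 0.24 (-0.43 log2, limma adjusted p = 0.0232). Its call was lost without male bull 1 replicate 3, male bull 3 replicate 3, or female bull 3 replicate 1 or 2 (adjusted p = 0.0535 to 0.0631). SREBF2 was higher in bull 3 than in bull 1, at 8.88 ± 0.41 against 8.62 ± 0.36 (0.26 log2, limma adjusted p = 0.0446). This call was kept only without male bull 1 replicate 2, male bull 2 replicate 1, male bull 3 replicate 2 or female bull 1 replicate 2, and the other 14 such fits gave adjusted p = 0.0501 to 0.122. With the index as a covariate both bull 3 against bull 1 differences were smaller and not called. They were -0.28 log2 for LSS and 0.19 log2 for SREBF2 (limma adjusted p = 0.882 and 0.893). In bull 1 the index had group means of 0.01 (males) and -0.21 (females), far from those of bull 3. This fit therefore separates index and bull poorly, and the lost calls do not show that the differences are absent.

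**Figure D4:**
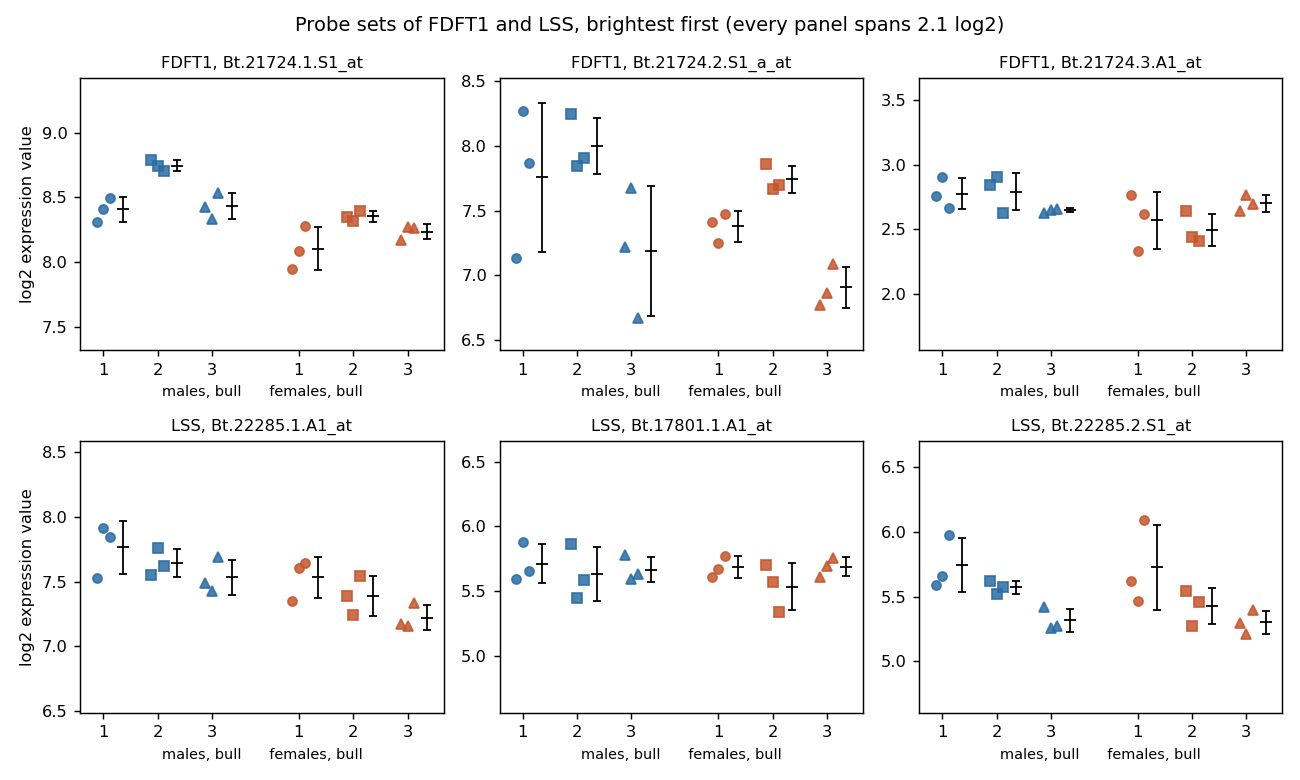
Log2 expression values on 18 arrays of the 3 probe sets of FDFT1 (top) and of LSS (bottom), males left and females right, by bull, with group means ± SD (n = 3). The second FDFT1 probe set is low in bull 3, from 6.67 to 7.67, and the brightest LSS probe set is the one of 3 that passed for sex.

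Among enzymes at other steps of the pathway no call was in the male direction. Of 13 listed, 8 were measured, and none was higher in males by the test, while 2 were higher in females. These were NSDHL and EBP, the measured X-linked enzymes of the pathway. NSDHL, a sterol dehydrogenase that acts after CYP51A1, stood at 8.79 ± 0.10 in males and 9.41 ± 0.12 in females, -0.62 log2 (-0.74 to -0.50, limma adjusted p = 3.44e-07). All 9 female arrays, from 9.16 to 9.56, lay above all male arrays, from 8.67 to 9.02, as at 1.99% of all probe sets. EBP, a sterol isomerase further along, stood at 9.52 ± 0.14 in males and 9.76 ± 0.13 in females, -0.24 log2 (-0.38 to -0.11, limma adjusted p = 0.0146). Leaving out bull 2 or bull 3 ended the call (adjusted p = 0.0802 and 0.14). Of 297 X-linked genes on the array 70% were higher in females, and 0.337% higher in males. The 6 autosomal enzymes ACAT2, MVK, PMVK, SQLE, TM7SF2 and MSMO1 did not pass, with differences from -0.09 to 0.16 log2 and a median of 0.11. SQLE, the oxidase that makes squalene epoxide between FDFT1 and LSS, had 9.97 ± 0.22 in males and 9.89 ± 0.15 in females (0.08 log2, -0.10 to 0.26). MSMO1, an oxidase that acts between CYP51A1 and NSDHL, had 0.14 log2 (0.01 to 0.27, limma adjusted p = 0.149).

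Genes that control SREBP processing, with SREBF1, gave no call. None of 6 passed, with a median of 0.00 log2. The brightest SREBF1 probe set, for the related factor that drives fatty acid genes, averaged 8.27 ± 0.26 in males and 8.28 ± 0.08 in females (-0.0045 log2, -0.15 to 0.14). SCAP, INSIG1, INSIG2 and MBTPS1 lay between -0.01 and 0.04 log2. The X-linked MBTPS2 had -0.19 log2 (limma adjusted p = 0.172). It passed without male bull 1 replicate 3 (adjusted p = 0.03). INSIG1, itself a target of SREBP-2, had an interval of -0.30 to 0.39 log2, and its arrays ran from 6.18 to 8.12 in males and from 7.31 to 7.70 in females.

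Among 9 genes of other branches of the mevalonate pathway, 4 were higher in males and 1 in females, with a median of 0.20 log2. Of all 9155 genes 9.31% were higher in males and 11.5% in females. COQ2 attaches the isoprenoid tail of ubiquinone. Its brightest probe set stood at 9.22 ± 0.10 in males and 8.87 ± 0.13 in females (0.36 log2, limma adjusted p = 0.000328). There the sexes did not overlap, as at 0.937% of all probe sets with males above. The dimmer COQ2 probe set, at a mean level of 4.44, had 0.08 log2 and did not pass (limma adjusted p = 0.647). In bull 3 it had -0.10 log2. NUS1, a subunit of the enzyme that makes dolichol, was higher in males by 0.33 log2 (limma adjusted p = 0.00152). Its dimmer probe set had 0.27 log2 and did not pass (limma adjusted p = 0.156). PDSS2 and PDSS1, the subunits that build the ubiquinone tail, were higher in males by 0.29 and 0.24 log2 (limma adjusted p = 0.00287 and 0.0112). PDSS2 did not pass without bull 3 (adjusted p = 0.0569). PDSS1 did not pass without bull 2 or bull 3 (adjusted p = 0.0822 and 0.0868) or as the mean of its probe sets, of which the dimmer had -0.20 log2 (0.02 log2 for the mean, adjusted p = 0.823). GGPS1, named after its values were seen as the exception, makes geranylgeranyl diphosphate and was higher in females (-0.20 log2, limma adjusted p = 0.0293). It lost that call in 9 of 18 fits without 1 array (adjusted p = 0.0507 to 0.0648), and kept it in those without male bull 1 replicate 1 or 2, male bull 2 replicate 2 or 3, male bull 3 replicate 2 or 3, female bull 1 replicate 2, female bull 2 replicate 1 or female bull 3 replicate 1. It also lost it without bull 2 (0.183), without bull 3 (0.148) and with bull as the replicate (adjusted p = 0.0518).

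Of 9 measured genes of cholesterol uptake, transport, storage and efflux none passed, with a median of 0.04 log2. Among 8 enzymes of fatty acid synthesis known as SREBP targets, 2 were higher in males and 1 in females, with a median of 0.06 log2. FADS2, a desaturase, was higher in males by 0.83 log2 and FASN, fatty acid synthase, by 0.25 log2 (limma adjusted p = 8.40e-06 and 0.00161). ME1, malic enzyme, was higher in females (-0.43 log2, limma adjusted p = 0.0142). FASN lost its call without bull 3 (adjusted p = 0.103), and ME1 without bull 1 or bull 3 (0.119 and 0.0562). Over these 5 groups of genes, 10 of 40 passed, against 20.8% of all 9155 genes in either direction.

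**Figure D5:**
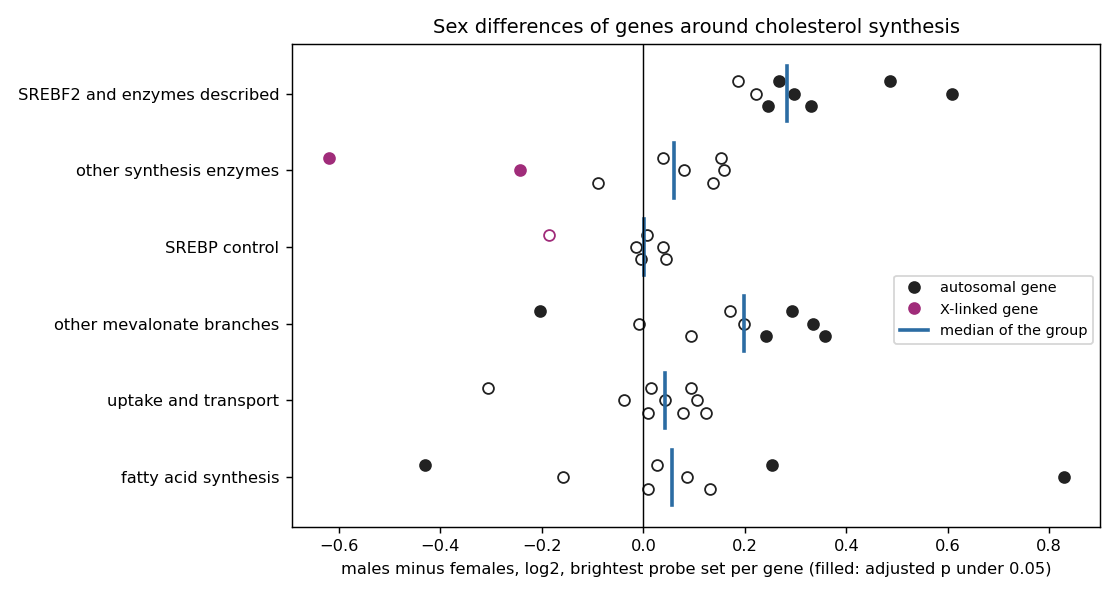
Difference of males minus females on the log2 scale, brightest probe set per gene, for SREBF2 and 7 enzymes and for 5 groups of related genes (filled: adjusted p under 0.05, blue bars: medians). The median is 0.28 for SREBF2 and the 7 enzymes, 0.06 for the other synthesis enzymes, 0.00 for SREBP control and 0.20 for the other mevalonate branches.

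Genes listed as markers of both blastocyst lineages were measured. Of 9 listed trophectoderm markers 5 were measured. KRT18 stood at 14.04 ± 0.07 in males and 14.04 ± 0.06 in females, and TFAP2A and DSC2 were higher in males (0.54 and 0.42 log2) and IFNT2 in females (-0.59 log2). Of 6 inner cell mass markers 4 were measured, with POU5F1 at 11.93 in both sexes, and SPP1 and STAT3 higher in females (-0.56 and -0.28 log2). SOX2 stood at 8.75 ± 0.28 in males and 8.65 ± 0.24 in females and did not pass (0.10 log2, limma adjusted p = 0.529). Of 14 cumulus and granulosa markers, by the brightest probe set, COL1A2 was higher in males (0.26 log2), and CYP19A1 and DCN were higher in females (-0.56 and -0.33 log2). The other 11 did not pass, and of all 9155 genes 20.8% passed in either direction, a share near that of this list. A dimmer probe set of HAS2 was higher in males (0.30 log2, limma adjusted p = 0.00078). One of TNFAIP6, with a mean level of 3.33, was higher in females (-0.44 log2, limma adjusted p = 0.00139). The brightest probe sets of HAS2 and TNFAIP6 did not pass (0.12 and 0.06 log2). The mean log2 level of these 3 lists ran from 8.70 to 9.36 in males and 8.72 to 9.20 in females for trophectoderm, from 8.59 to 8.89 and from 8.83 to 9.09 for the inner cell mass, and from 4.97 to 5.53 and from 5.09 to 5.57 for cumulus and granulosa. The deposited values carry no detection calls, and 3 of the 14 cumulus and granulosa genes had mean levels in the lower quartile of all probe sets. Calls of DCN, TFAP2A, DSC2 and COL1A2 were lost in 13, 7, 7 and 2 of 18 fits without 1 array. These 4 calls, and those of SPP1 and STAT3, were also lost when at least 1 of the bulls was left out (adjusted p = 0.156 for SPP1 without bull 1, 0.125 for SPP1 without bull 3 and 0.123 for STAT3 without bull 2). Without moderation the calls of SPP1, TFAP2A, DSC2 and DCN were lost (adjusted p = 0.0547, 0.0951, 0.0832 and 0.105), and that of COL1A2 was lost as the mean of its probe sets (adjusted p = 0.098). CYP19A1 was called at its brightest probe set alone, and the mean over its probe sets differed by -0.07 log2 and did not pass (adjusted p = 0.318). Between bulls, 3 of the 14 cumulus and granulosa markers were called for bull 2 against bull 1, and 1 for each other pair of bulls. Of all probe sets 1.52% were called for bull 2 against bull 1. The shares were 3.53% for bull 3 against bull 1 and 3.74% for bull 3 against bull 2. POSTN and DCN were higher in bull 2 than in bull 1 (2.16 and 0.84 log2, limma adjusted p = 0.0197 and 0.00383). CYP19A1 was lower in bull 2 (-0.49 log2, limma adjusted p = 0.03). Among the inner cell mass markers SOX2 alone was called, higher in bull 3 than in bull 1 (0.44 log2, limma adjusted p = 0.0283). No trophectoderm marker was called between bulls. The part of these marker differences by sex or bull in the results above was not tested. The 5′ to 3′ index averaged -0.35 in males and -0.35 in females, and with it as a covariate 7 of the 14 probe sets passed for sex. Of 4 arrays with a wide relative spread 3 were male, and without these 4 arrays 7 of 14 passed.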

How the data were processed

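Per the labels' protocols, 50 ng of RNA from each of 18 pools was amplified linearly for an Affymetrix bovine array. Per the submitters' processing notes, RMA and Partek 6.4 were used, with no role given for either. The authors deposited 1 log2 value per probe set and array. The scale was read from the values. If arrays were normalized to a common distribution, a shift shared by all transcripts would not appear. Precision is limited by how many arrays there are. No scan batch is given in the sources used here.

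After removal of 112 control probe sets, GEO's platform annotation named a single gene for 13292 probe sets, of which 13263 were matched by gene number to the assembly ARS-UCD2.0 for symbols and chromosomes. The probe set of a gene with the highest mean over all arrays is called its brightest. limma 3.58.1 (R 4.3.3) estimated 6 group means with moderated variances. Sex was tested as the mean of the 3 within-bull differences, then within bulls, then as an interaction, and bulls were tested as means over the sexes. Benjamini-Hochberg adjustment ran over 24016 probe sets. The fits were run on simulated data with independent noise, a check of the calculation that cannot bear on dependence among pools. Mean levels of probe sets served to choose, filter and describe probe sets, not to compare expression between genes.

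The members, lists and tests were chosen with earlier results of these data known. All member probe sets are named. Of other lists, called genes (up to 4 by smallest p), NSDHL, EBP, MBTPS2 and the genes most like SREBF2 are named by rule, and other genes for context after their values were seen. Alternatives were an additive model, no moderation, the brighter 50% of probe sets, quantile normalization, an intensity trend, array weights, the sample number as a block, bull as the replicate, 1 probe set or the mean per gene, an RNA integrity covariate (5′ to 3′ index), and leaving out each array, each bull or 4 arrays of wide spread (interquartile range of deviations from probe set medians over 0.25). Figures were drawn with matplotlib 3.10.9.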

Additional observations from a re-analysis of the deposited data

Results flagged for a closer look

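In 28 checks of the 9 arrays of a sex at the 14 probe sets, 3 values stood far from the others. Chance flags about 1 in 20 such checks, and the 9 arrays hold 3 bulls. FDPS had 10.30 in female bull 1 replicate 3, with the next female array at 9.999 and the lowest at 9.79. The dimmest LSS probe set by mean had 6.09 in the same array, with the next at 5.62 and the lowest at 5.22. Another LSS probe set had 5.34 in female bull 2 replicate 3, with the next at 5.57 and the highest at 5.78. Female bull 1 replicate 3 is among the 4 arrays with a wide relative spread (0.305, where the other 14 arrays lie between 0.168 and 0.198).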

How the results depend on the processing

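Counts are member probe sets called. By sex 6 were called, 6 to 8 without 1 array, 2 without bull 2, 3 without bull 3 and 9 with bull as the replicate, the range of the 15 other fits being 2 to 9. With bull as the replicate each probe set has 3 differences, and the test leans on variances moderated over all probe sets. Its higher count is therefore not stronger support. Within bulls 1, 2 and 3 the counts were 1, 2 and 2, and 1 to 3, 0 to 3 and 1 to 2 without 1 array. The interaction stayed at 0, also without 1 array (0 to 0). For bull 2 minus bull 1, bull 3 minus bull 1 and bull 3 minus bull 2 they were 1, 2 and 1, and 0 to 2, 0 to 3 and 1 to 1 without 1 array. Of the other 40 genes 10 were called, 9 to 12 without 1 array and 4 without bull 3. Without moderation bull 3 had 1 and bull 3 minus bull 1 had 1. In the brighter 50% of probe sets bull 1 had 2 and bull 3 minus bull 2 had 2. With array weights bulls 1, 2 and 3 had 2, 4 and 4, bull 2 minus bull 1 had 3 and bull 3 minus bull 2 had 2. With the 5′ to 3′ index bull 3 had 1, bull 2 minus bull 1 had 2, and both bull 3 contrasts had 0. Without the 4 wide arrays bull 1 had 2 and bull 3 minus bull 1 had 0. With 1 probe set per gene bull 1 had 2, bull 3 minus bull 1 had 1 and bull 3 minus bull 2 had 0, and with means per gene bull 2 had 1, bull 2 minus bull 1 had 0 and bull 3 minus bull 1 had 1. Without bull 1, bull 3 minus bull 2 had 2. Without bull 2, bull 3 had 1 and bull 3 minus bull 1 had 0. Without bull 3, bull 2 had 1 and bull 2 minus bull 1 had 0. Fits without a bull or an array hold fewer samples, and the cause of the other changes was not tested. A dimmer LSS probe set, at 0.03 log2, turned to -0.0123 without the wide arrays, and ran from -0.00496 (without male bull 2 replicate 1) to 0.0638 without 1 array. Same-numbered male and female arrays correlated at -0.18 to 0.10 in their deviations, with 2 of 9 pairs over 0.1. These correlations gave no clear sign of pairing by number, but they cannot exclude runs shared by same-numbered pools. With the replicate block 6 were called by sex, 1 within bull 2 and 1 within bull 3.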

Other observations

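Among pools of the same group, the members mostly varied in 1 direction. Deviations from the 6 group means were compared over 18 arrays between the brightest probe sets of the 8 genes. Values of a pair come from the same RNA, array and normalization, so these correlations are descriptions. Of 28 pairs 27 had a correlation above 0, with a median of 0.44 and a highest of 0.80. The level usual for other gene pairs on these arrays is not given here, so no trait particular to these genes can be read from it. SREBF2 was set against the 7 enzymes, with its values permuted within groups (100000 permutations, two-sided, Benjamini-Hochberg over 7 relations). Pearson's r ran from -0.22 for DHCR7 to 0.43 for LSS, and the smallest p was that of LSS (p = 0.123, adjusted p = 0.752 by permutation). For LSS Spearman's rho was 0.43 (permutation p = 0.143, adjusted p = 0.878). Without the 2 arrays farthest from the median of SREBF2, r was 0.29 for LSS, 0.0022 for CYP51A1 and -0.14 for DHCR7. It was -0.12 for HMGCS1, -0.40 for MVD, -0.11 for FDPS and -0.31 for FDFT1, against 0.09, 0.17, 0.21 and 0.12 over all arrays. Leaving out these 2 arrays thus turned those signs. Without the arrays of wide spread those signs stayed positive, with r of 0.41, 0.28, 0.34 and 0.25 in the same order. That removal gave 0.38 for LSS, 0.42 for CYP51A1 and -0.0076 for DHCR7. The values therefore depend on which arrays are left out. No relation passed, which does not show that the enzymes vary independently of SREBF2.

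The genes whose values over 18 arrays were most like those of the brighter SREBF2 probe set were IQSEC1, ATPSCKMT, GLE1, SUN2 and SLC6A20, with Pearson's r of 0.95, 0.95, 0.94, 0.94 and 0.93. All 5 had male means above female means, by 0.32 to 0.74 log2. The SREBF2 values separate the sexes, so this direction follows from the ranking and is no separate result. By deviations from the group means, these 5 had r of 0.64, 0.61, 0.61, 0.55 and 0.27. By deviations from the group means, FBXO9, OSBPL7, IVD, SFPQ and FRMD4A came first, with r of 0.89, 0.86, 0.86, 0.85 and 0.85. No member is in either list, since members were left out of this ranking.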
